A study of Mus musculus with 32 samples.

Results

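The genes described here are 9 of the 23620 genes listed in both RNA tables of the study, namely the chemokine receptors *Ccr1*, *Ccr2*, *Cx3cr1* and *Cxcr4* and the chemokine ligands *Ccl2*, *Ccl3*, *Ccl4*, *Ccl6* and *Ccl9*. They were chosen by name as the chemokine system of myeloid cells, with earlier results of these data known. The IGF2BP3 binding peaks that carry their Ensembl gene IDs were collected from every enhanced crosslinking and immunoprecipitation (eCLIP) library. All 9 were found in both RNA tables, and 6 of them had at least 1 peak in some library. IGF2BP3 is an RNA-binding protein of early development that is made again in leukemia, and the study asks what it binds and regulates in leukemia driven by the fusion gene MLL-Af4.

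The study used mouse Lin- cells, which are bone marrow cells depleted of mature lineages, and CD11b+ cells, which were selected from splenic tumors of leukemic mice. MLL-Af4 was brought in by retrovirus with drug selection in all groups, controls included. I3KO cells carry a germline deletion of *Igf2bp3* exon 2, which arose from leaky Vav1-Cre, and WT cells carry the intact gene. RNA was sequenced from 3 WT and 3 I3KO libraries of each cell type, and only the authors' mean normalized count over these 6 libraries is used here, so no difference between the genotypes is given. The eCLIP libraries numbered 6 from Lin- cells, 3 biological and 3 technical, and 4 from CD11b+ cells, 2 biological and 2 technical, each with its own size-matched input (smInput), the background control of the method. Their labels state no treatment and no genotype (the legends of the study give WT/MLL-Af4), and there is no I3KO arm in the eCLIP data. Their labels do not say which biological library each technical one repeats. The names of both sets start with "bm", also for the CD11b+ cells.

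Chemokines are small secreted proteins that attract leukocytes along a gradient. They act on receptors with a bundle of membrane-spanning helices, which signal through inhibitory G proteins and are switched off by receptor kinases and arrestins. CCL2 draws monocytes out of the marrow through CCR2, CXCR4 holds progenitors in the marrow through CXCL12, and CCL3, CCL4, CCL6 and CCL9 are made by myeloid cells, with CCR1 among the receptors for CCL3, CCL6 and CCL9.

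After removal of peaks that overlap the library's own smInput, 4040 to 10042 peaks were left in each of the Lin- libraries, and the CD11b+ libraries kept 7085 to 10054. In the CD11b+ RNA table, *Itgam*, which encodes CD11b itself, had a mean normalized count of only 17.0, at percentile 41.9 of that table, and it was not listed in the Lin- table. The other 5 CD11b+ myeloid markers were at percentile 89.8 or higher in CD11b+ cells and between 69.3 and 99.7 in Lin- cells. All 6 progenitor markers were at percentile 97.4 or higher in Lin- cells, and *Myb*, *Elane* and *Mpo* among them reached percentile 99.9 in CD11b+ cells as well. *Kit*, *Cd34* and *Flt3* were lower in CD11b+ cells, at percentiles 76.6, 86.2 and 69.1. Summed over 3 genes, B cell markers had 314 normalized counts in the CD11b+ table and 8.03 in the Lin- table, and erythroid markers had 2365 and 97.4. T cell markers summed to 15.7 over 3 genes in the CD11b+ table and to 2.13 over the 2 listed in the Lin- table. Of the endothelial markers, *Pecam1* had 3852 and 7064, while *Cdh5* and *Kdr* stayed at 33.0 or below. No listed marker was at 0, and the part of other cells in the results below was not tested. Each table was normalized on its own, so levels are compared between cell types only as ranks or side by side.

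The sequences below show where the peaks of the ligands and of *Cxcr4* lay. Within a cell type, overlapping same-strand peaks from any library were joined, and each joined interval is called a region. The regions are printed because they cross a splice site of their own gene, with exon bases in capitals and intron bases in lower case, from 5′ to 3′ on the gene's strand (RefSeq GRCm38, which is mm10). The first 7 are from Lin- cells and the last 2 from CD11b+ cells.
Ccl3 exon 1 donor, chr11:83649172-83649214, minus strand: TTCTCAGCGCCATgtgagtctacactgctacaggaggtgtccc
Ccl3 exon 2 acceptor, chr11:83648668-83648729, minus strand: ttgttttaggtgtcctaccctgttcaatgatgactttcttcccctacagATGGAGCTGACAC
Ccl3 exon 3 acceptor, chr11:83648334-83648389, minus strand: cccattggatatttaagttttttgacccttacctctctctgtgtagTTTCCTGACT
Ccl4 exon 1 donor, chr11:83662685-83662767, plus strand: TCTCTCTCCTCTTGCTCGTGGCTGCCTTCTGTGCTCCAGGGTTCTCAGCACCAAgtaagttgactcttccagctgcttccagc
Ccl9 exon 2 acceptor, chr11:83576429-83576495, minus strand: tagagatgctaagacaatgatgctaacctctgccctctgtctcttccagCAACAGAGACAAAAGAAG
Ccl9 exon 3 acceptor, chr11:83575932-83576001, minus strand: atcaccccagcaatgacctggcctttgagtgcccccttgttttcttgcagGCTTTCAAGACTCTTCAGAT
Cxcr4 exon 2 acceptor, chr1:128589899-128589947, minus strand: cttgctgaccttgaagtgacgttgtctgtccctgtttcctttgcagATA
Cxcr4 exon 1 donor, chr1:128592157-128592191, minus strand: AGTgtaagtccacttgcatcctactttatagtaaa
Ccl9 exon 3 donor, chr11:83575776-83575845, minus strand: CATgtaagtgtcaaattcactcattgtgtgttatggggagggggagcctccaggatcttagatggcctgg

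The leading receptor regions are printed next. For *Cxcr4* and *Ccr2* they lay in the 3′ UTR, where the *Ccr2* region past the stop codon also crosses a donor site that 1 of its 4 transcripts uses, and for *Cx3cr1* in an intron that holds a CA repeat. Those of *Cxcr4* and *Cx3cr1* and the first 2 of *Ccr2* were called in at least 3 CD11b+ libraries, and the last of *Ccr2* is shown because it was called in both cell types, though in only 1 CD11b+ library. For each 3′ UTR region, 30 bases at the middle of its deepest peak are printed in lower case. The *Cx3cr1* sequence is the region of Lin- cells, which lies inside the longer region of CD11b+ cells, and its capitals mark the 6-mers ACACAC and CACACA, which overlap each other.
Cxcr4 3′ UTR, CD11b+, chr1:128588592-128588621, minus strand: aggacctgtggccaagttcttagtagctgt
Ccr2 past the stop codon, CD11b+, chr9:124106825-124106854, plus strand: tttttttaagcagggaaggagggagcagtt
Ccr2 3′ UTR, CD11b+, chr9:124107789-124107818, plus strand: ctcttgtttgatctttccttctgctttcca
Ccr2 3′ UTR, both cell types, chr9:124108441-124108470, plus strand: acctttgtaagagctcttatcttgccaagg
Cx3cr1 intron, both cell types, chr9:120056748-120056833, minus strand: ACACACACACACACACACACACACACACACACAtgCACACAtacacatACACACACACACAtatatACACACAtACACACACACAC

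At least 1 filtered peak was found on 6 of the 9 genes in Lin- cells, where 26.5% of all listed genes had one. In CD11b+ cells it was 5 of 9, against 25.6% of all listed genes. Peaks in at least 2 biological libraries were found on 5 of the 9 genes in Lin- cells, against 13.7% of all genes, and on 4 of 9 in CD11b+ cells, against 10.2%. Most of the 9 genes were more highly expressed than the median gene. The shares with at least 1 peak among genes of like expression, given further on, are the closer background. No such share is given for peaks in at least 2 biological libraries. *Ccr2*, *Cx3cr1*, *Cxcr4*, *Ccl3* and *Ccl9* had peaks in both cell types, and *Ccl4* had peaks in Lin- cells. *Ccr1*, *Ccl2* and *Ccl6* had none in any of the 10 libraries. The read depth of the libraries is unknown, so 0 peaks means that binding was not detected, not that it is absent.

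**Figure D1:**
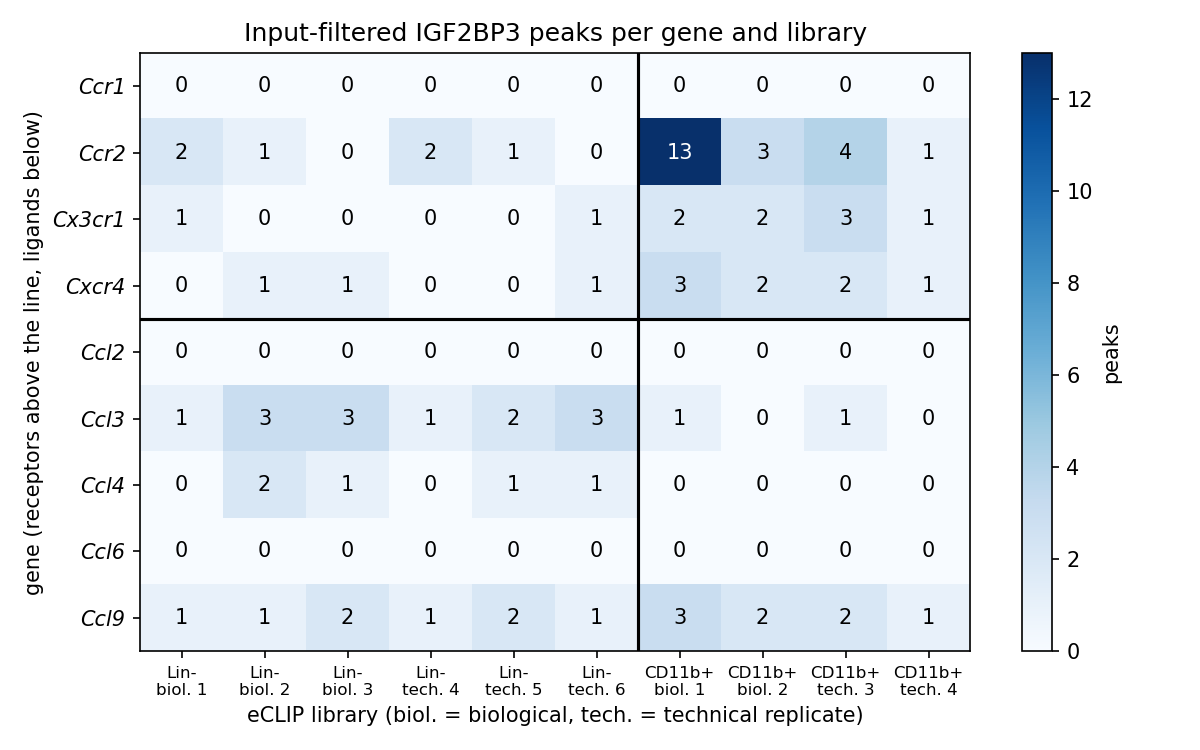
Number of smInput-filtered IGF2BP3 peaks on each gene (rows, receptors above the line and ligands below) in each of the 10 eCLIP libraries (columns). *Ccr2* had 13 peaks in CD11b+ biological replicate 1 and at most 4 in any other library, and the peaks of *Ccl4* were all in Lin- libraries.

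Among the receptors, *Ccr2*, which guides monocytes toward CCL2, had 2, 1 and 0 peaks in Lin- biological replicates 1, 2 and 3, and 2, 1 and 0 in technical replicates 4, 5 and 6. In CD11b+ cells it had 13 and 3 peaks in biological replicates 1 and 2, and 4 and 1 in technical replicates 3 and 4. The biological libraries of the cell types did not overlap, and 1 CD11b+ library, biological replicate 1, stood far above all others. *Cxcr4*, the marrow retention receptor, had 0, 1 and 1 peaks in the Lin- biological libraries and 3 and 2 in the CD11b+ ones, with 0, 0 and 1 in the Lin- technical libraries and 2 and 1 in the CD11b+ ones. *Cx3cr1*, the fractalkine receptor of patrolling monocytes, had 1, 0 and 0 peaks in the Lin- biological libraries and 2 and 2 in the CD11b+ ones, with 0, 0 and 1 against 3 and 1 in the technical libraries. For these 3 receptors every biological CD11b+ library was above every biological Lin- one, while the technical libraries touched or overlapped. Among all genes with a peak in a biological library, 9.84% had that order. *Ccr1*, a receptor for several inflammatory chemokines, had 0 peaks throughout.

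The ligands had other orders. *Ccl3*, an inflammatory chemokine, had 1, 3 and 3 peaks in the Lin- biological libraries and 1, 2 and 3 in the technical ones, against 1 and 0 in the CD11b+ biological libraries and 1 and 0 in the technical ones. *Ccl4*, its neighbour on chromosome 11 with a like function, had 0, 2 and 1 peaks in the Lin- biological libraries and 0, 1 and 1 in the technical ones, and 0 in all 4 CD11b+ libraries. Both genes met the CD11b+ range in at least 1 Lin- biological library, so their biological libraries overlapped or tied. *Ccl9*, a myeloid ligand, had 1, 1 and 2 peaks in the Lin- biological libraries and 3 and 2 in the CD11b+ ones, with 1, 2 and 1 against 2 and 1 in the technical ones, and was the single gene of the 9 with a peak in all 10 libraries. *Ccl2*, the main monocyte attractant, and *Ccl6* had 0 peaks throughout. None of the 9 genes had every biological Lin- library above every CD11b+ one, an order held by 6.53% of all genes with a peak in a biological library.

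Counted together and divided by the size of each library, the 9 genes took 6.79, 7.97 and 8.06 of every 10000 filtered peaks in the Lin- biological libraries and 25.8 and 8.95 in the CD11b+ ones. The means were 7.61 ± 0.706 (SD, n = 3) and 17.4 ± 11.9 (SD, n = 2), a difference of 9.78. The groups did not overlap, but 1 CD11b+ library set most of the distance, and without CD11b+ biological replicate 1 the difference was 1.35. In the technical libraries the values were 9.90, 9.24 and 15.5 in Lin- cells and 15.8 and 5.65 in CD11b+ cells, which overlapped. An exact two-sided permutation test of 3 against 2 libraries cannot give a p below 0.1, so no such difference can pass the threshold of 0.05 here. The groups overlapped when touching peaks of a library were merged, with 7.49 to 9.55 in Lin- cells against 8.97 and 26.8, and at a CLIPper p below 0.001, with 5.41 to 10.8 against 8.56 and 28.7.

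The 4 receptors and the 5 ligands differed in the sign of the difference. This split was made after the values were seen, and few genes set either value. *Ccr2* gave 13 of the 18 receptor peaks in CD11b+ biological replicate 1, and *Ccr1* gave 0. The ligand *Ccl9* went the other way, with 1, 1 and 2 peaks in the Lin- and 3 and 2 in the CD11b+ biological libraries. *Ccl2* and *Ccl6* had 0, so the negative sign for the ligands came from *Ccl3* and *Ccl4*. Receptor peaks numbered 4.08, 1.99 and 1.15 per 10000 in the Lin- biological libraries and 21.1 and 6.96 in the CD11b+ ones, a difference of 11.6. These groups did not overlap, and the difference was 4.56 without CD11b+ biological replicate 1. Ligand peaks numbered 2.72, 5.97 and 6.91 per 10000 in the Lin- biological libraries and 4.69 and 1.99 in the CD11b+ ones, a difference of -1.86 with overlap. In the technical libraries, receptor peaks ranged from 1.54 to 4.95 per 10000 in Lin- cells and were 11.9 and 4.23 in CD11b+ cells. Ligand peaks ranged from 4.95 to 11.1 in Lin- technical libraries and were 3.95 and 1.41 in CD11b+ ones. The number of the 9 genes with a peak was 4.33 ± 0.577 (SD, n = 3) per Lin- and 4.5 ± 0.707 (SD, n = 2) per CD11b+ biological library, a difference of 0.167 with overlap. At a CLIPper p below 0.001 it was 3, 2 and 2 in the Lin- and 5 and 4 in the CD11b+ biological libraries, without overlap, a difference of 2.17.

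**Figure D2:**
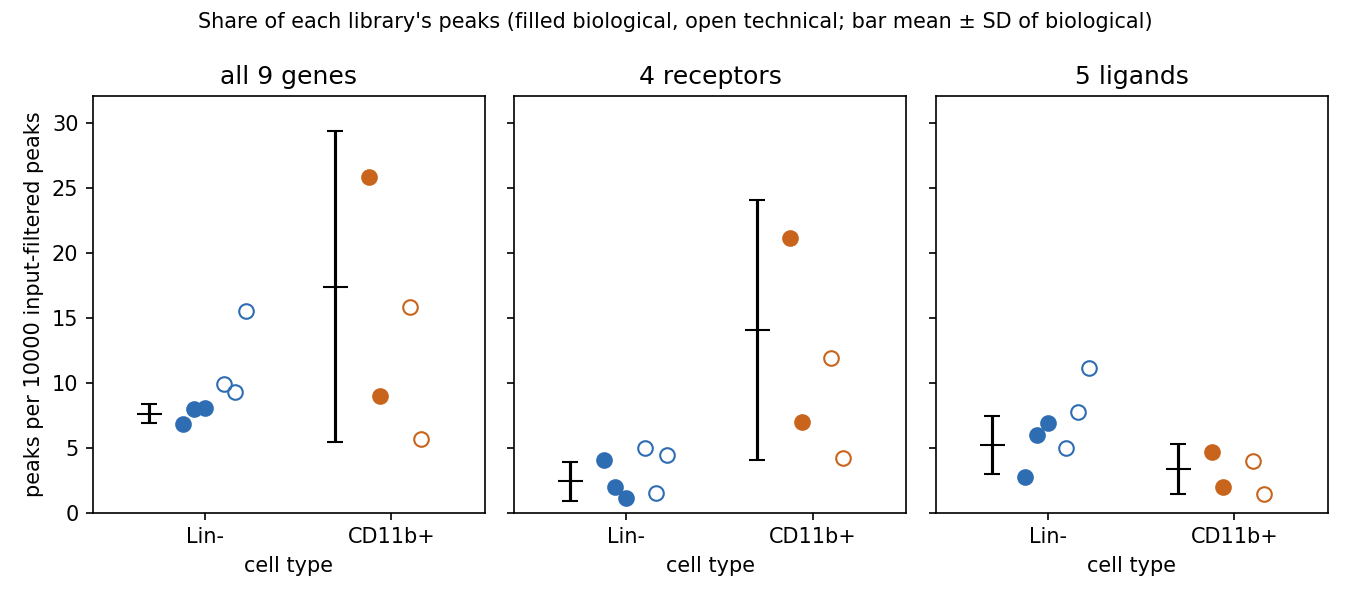
Peaks on the 9 genes, on the 4 receptors and on the 5 ligands per 10000 filtered peaks of a library (vertical axis, from 0) by cell type, with filled points for biological and open points for technical libraries and bars for the mean ± SD of the biological libraries. Biological CD11b+ libraries were above all biological Lin- libraries for receptors, with 6.96 as the lower CD11b+ value and 4.08 as the highest Lin- value, and overlapped them for ligands.

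Before the smInput filter, no peak of any of the 10 smInput libraries carried one of the 9 gene IDs, and the filter removed 0 of the peaks on these genes. The eCLIP libraries had 10.02 ± 7.31 (SD, n = 5) peaks on the 9 genes per 10000 over the biological libraries, against 0 in their own smInputs, and all 5 pairs had the higher value in eCLIP. The smInput libraries held only 217 to 1885 peaks each, so a count of 0 still allows between 15.9 and 138 peaks per 10000. In 9 of the 10 libraries the eCLIP value was below what its own smInput could show, so a difference was not detectable at this depth. The exception was CD11b+ biological replicate 1, with 23.0 per 10000 against a limit of 18.0. An exact two-sided sign-flip permutation test over 5 pairs cannot go below 0.0625.

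Joined over libraries, the peaks on the 9 genes gave 12 Lin- and 25 CD11b+ regions. Of the 12, 9 were seen in at least 2 libraries (75%, against 37.6% of all 19876 Lin- regions). Of the 25 it was 11 (44.0%, against 42.5% of all 17127). Technical libraries count here, so 2 libraries need not be 2 biological samples. *Ccr2* alone made up 14 of the 25, and 8 of its 14 were called in CD11b+ biological replicate 1 and in no other library. With 14 regions *Ccr2* had more than 99.1% of the genes with a peak in CD11b+ cells, while its 2 Lin- regions were more than 48.0% of the genes with a peak there had.

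**Figure D3:**
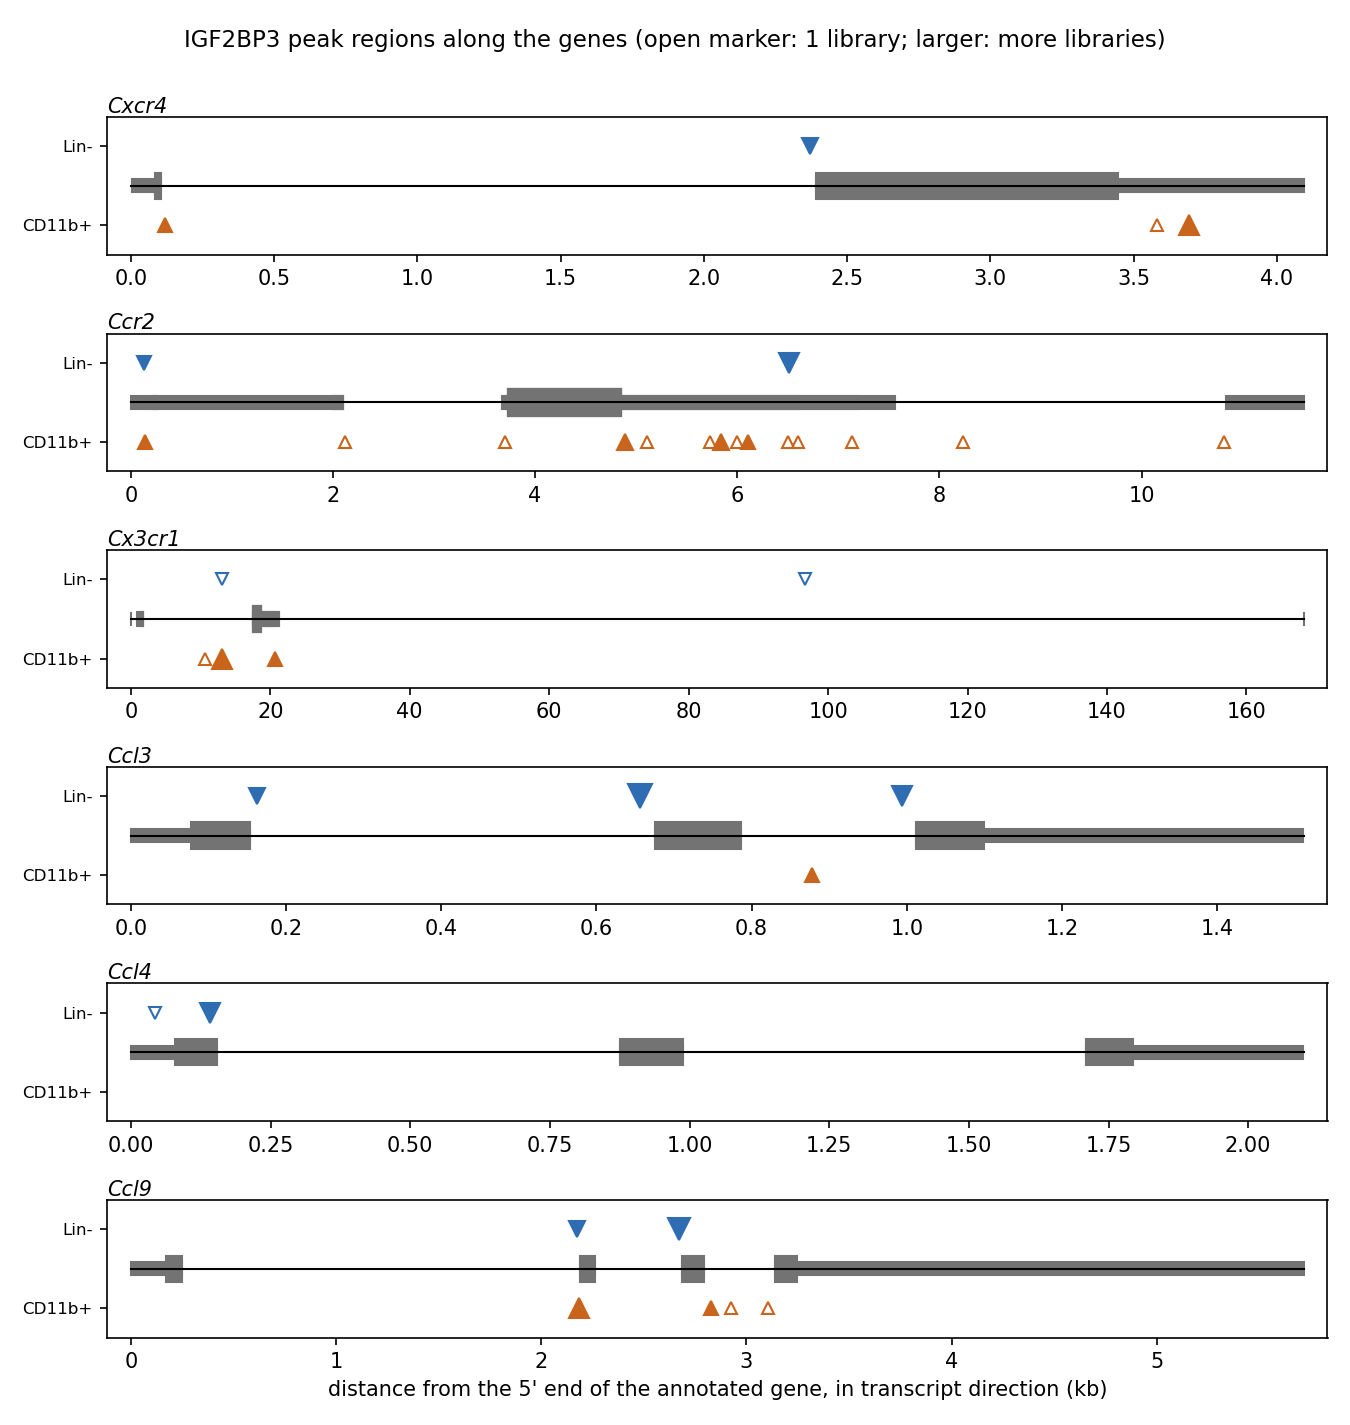
Merged IGF2BP3 regions of Lin- (blue, above) and CD11b+ cells (orange, below) along 6 genes, drawn by distance in kb from the 5′ end of the annotated gene in transcript direction, with coding exons as thick, untranslated exons as medium and introns as thin lines. The Lin- regions of *Ccl3* and *Ccl9* sit at exon edges, while the 14 CD11b+ regions of *Ccr2* run from its 5′ end to an intron of 1 transcript near its 3′ end.

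In Lin- cells, 8 of the 12 regions held an annotated splice site (66.7%, 95% Wilson interval 39.1% to 86.2%, against 49.8% of all Lin- regions). In CD11b+ cells it was 5 of 25 (20.0%, 8.86% to 39.1%, against 11.8% of all CD11b+ regions). Both intervals include the share of all regions. Among the 8 Lin- regions was a *Cx3cr1* region called in 1 library with 3 reads, whose splice site belongs to another gene. All 3 Lin- regions of *Ccl3* crossed a splice site. The exon 2 acceptor was called in all 6 Lin- libraries, with 7, 22 and 6 reads in the biological and 5, 17 and 8 in the technical libraries. The exon 3 acceptor was called in 4 libraries with 4 to 9 reads, and the exon 1 donor in 3 libraries, with 22 reads in biological replicate 2 and 3 reads in each of the others. In CD11b+ cells the single *Ccl3* region lay inside the last intron at 61 bases from the nearest splice site, with 13 reads in biological replicate 1 and 6 in technical replicate 3, and overlapped none of these. Read numbers are those written in the peak names, which were read as the reads in the peak.

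*Ccl9* was bound at the exon 3 acceptor in 5 of 6 Lin- libraries, with 5 or 6 reads each. Its exon 2 acceptor was called in both cell types, in 3 Lin- libraries with 12, 6 and 4 reads and in all 4 CD11b+ libraries with 4, 9, 7 and 12. This was the only splice site region of the 9 genes found in both cell types. The other 3 CD11b+ regions of *Ccl9* were in its last intron, between exons 3 and 4, and 1 of them crossed the exon 3 donor. *Ccl4* had its main region across the exon 1 donor, with 10 and 4 reads in Lin- biological replicates 2 and 3 and 8 and 6 in technical replicates 5 and 6. A second *Ccl4* region in the 5′ UTR had 4 reads in 1 library.

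*Cxcr4* had its regions at different places in the cell types. In Lin- cells its single region covered the end of the intron and the first bases of exon 2, with 5 and 3 reads in biological replicates 2 and 3 and 4 in technical replicate 6. In CD11b+ cells the leading region was in the 3′ UTR, 191 bases past the last coding base, with 31 and 11 reads in the biological and 23 and 14 in the technical libraries. A region across the exon 1 donor was called in both CD11b+ biological libraries, with 7 and 5 reads, and in neither technical one. None of the Lin- and CD11b+ regions of *Cxcr4* overlapped.

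*Ccr2* regions lay mainly in the long 3′ UTR in CD11b+ cells. The deepest one ran from the end of the coding sequence past the stop codon, with 41 reads in biological replicate 1, 6 in biological replicate 2, 36 in technical replicate 3 and no call in technical replicate 4. It is exonic in 3 of the 4 annotated transcripts and reaches into an intron of the other. A further region 954 bases past the last coding base had 11, 3 and 9 reads in the same 3 libraries. Both Lin- regions of *Ccr2* overlapped a CD11b+ region. The one in the 5′ UTR had 10 reads in Lin- biological replicate 1 and 6 in technical replicate 4, against 14 and 8 in CD11b+ biological replicate 1 and technical replicate 3. The other, further along the 3′ UTR, had 4 to 7 reads in 4 Lin- libraries and 6 reads in CD11b+ biological replicate 2.

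*Cx3cr1* had all 3 of its CD11b+ regions in sequence that recurs in the genome. The CA repeat printed above was called in all 4 CD11b+ libraries, with 10 and 37 reads in the biological and 8 and 27 in the technical ones, and in 1 Lin- library with 4 reads. The middle 25 bases of the CD11b+ region occur 1649 times on the chromosomes of the reference, and those of the other 2 occur 6598 and 37014 times, so reads there may come from other places, which was not tested. The second Lin- region of *Cx3cr1*, the only one in a biological Lin- library, had 3 reads under the *Cx3cr1* ID and middle bases that occur once. It holds an exon edge of another gene on the same strand, since the longest *Cx3cr1* transcript spans that gene, and its peak cannot be told apart from binding to that gene. Over the 9 genes, 30 of the 35 regions of at least 25 bases had middle bases that occur once. Among the others was a *Ccr2* region in the 3′ UTR, called only in CD11b+ biological replicate 1, whose middle bases occur 815 times.

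By the place of its middle base, 8 of 12 Lin- regions were intronic (66.7%, 39.1% to 86.2%), against 77.1% of all Lin- regions, 1 was in a coding exon and 3 were in a UTR. Of the 25 CD11b+ regions, 11 were intronic (44.0%, 26.7% to 62.9%), against 83.3% of all CD11b+ regions, none was in a coding exon, and 14 were in a UTR (56.0%, 37.1% to 73.3%), against 9.88% of all. Regions of 1 gene share its transcripts, so the intervals cover counting error only, and *Ccr2* held most of these 14. If any overlap with an exon counts as exonic, 8.33% of the Lin- regions were intronic, against 34.6% of all Lin- regions, and 28% of the CD11b+ regions, against 73.6% of all CD11b+ regions.

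The CA-rich 6-mers ACACAC and CACACA, searched on the strand of the region, were found in 1 of 12 Lin- regions (8.33%, against 8.53% of all Lin- regions) and in 1 of 25 CD11b+ regions (4.00%, against 17.3% of all CD11b+ regions). Both were the *Cx3cr1* repeat. The shorter ACAC or CACA was in 25% of the Lin- and 24% of the CD11b+ regions of the 9 genes, against 25.9% and 26.8% of all regions. The other genes had no such 6-mer within their regions or 20 bases around them. Bases C and T made up a median of 62.1% of the Lin- regions of the 9 genes and 54.7% of all Lin- regions, and 62.9% of the 5 that hold a 3′ splice site of their own gene, against 59.2% of all 6722 Lin- regions with a 3′ splice site. The CD11b+ median was 47.8%, near the 47.4% of all CD11b+ regions.

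RNA levels are given as the authors' mean normalized count of WT and I3KO libraries together, with no SD, and in bulk samples fewer expressing cells and less RNA per cell cannot be told apart. *Cxcr4* was the highest of the 9 per kb of exon in both tables, with 2221 normalized counts per kb in Lin- and 3799 in CD11b+ cells. *Ccr2* followed in Lin- cells with 1759 per kb but stood behind *Cxcr4*, *Ccl9* and *Ccl6* in CD11b+ cells with 439 per kb. *Ccl9* had 1126 and 1684 per kb, *Ccl3* 1110 and 266, and *Ccl6* 240 and 1177. *Ccl2* was the lowest in Lin- cells with 29.7 per kb, and *Ccl4* in CD11b+ cells with 40.5 per kb.

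Set beside the peaks, RNA rank and peak number did not run together in every gene. *Ccr2* had a mean normalized count of 11894 in the Lin- table (percentile 99.0) and 2971 in the CD11b+ table (percentile 94.5). It had 6 peaks over all 6 Lin- libraries but 21 over all 4 CD11b+ ones, technical libraries included. Of these 21 peaks, 13 were in CD11b+ biological replicate 1. *Ccl3* had 851 (percentile 73.9) and 203 (percentile 61.5), with 13 peaks in Lin- and 2 in CD11b+ libraries. *Ccl4* had 139 and 26.7, with 5 and 0. *Cxcr4* had 4009 and 6857, *Cx3cr1* 781 and 1067, and *Ccl9* 3385 and 5062, each with the higher percentile in CD11b+ cells. Their peaks over the same libraries numbered 3 and 8, 2 and 8, and 8 and 8. Only *Ccr2* had fewer peaks in the cell type where its RNA rank was higher.

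The genes without peaks were not all low. *Ccr1* had 778 normalized counts in the Lin- and 1099 in the CD11b+ table, in groups 8 and 9 when the genes of each table are split by mean count into 10 groups of equal size, where 47.9% and 60.8% of genes had a peak. *Ccl6* had 346 and 1695, in groups where 23.7% and 60.8% had a peak. *Ccl2* had 24.1 and 41.8, in groups where 6.63% and 8.73% had one. *Ccl4*, in a Lin- group where 8.89% of genes had a peak, was called in 4 of 6 Lin- libraries. Its CD11b+ group, where it had no peak, had a share of 8.73%. Of the other genes with peaks, *Ccr2*, *Cxcr4* and *Ccl9* were in the highest of these groups in both tables, where 87.6% of Lin- and 71.6% of CD11b+ genes had a peak. *Ccl3* and *Cx3cr1* were both in a Lin- group where 47.9% of genes had a peak. In their CD11b+ groups it was 28.6% for *Ccl3* and 60.8% for *Cx3cr1*.

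**Figure D4:**
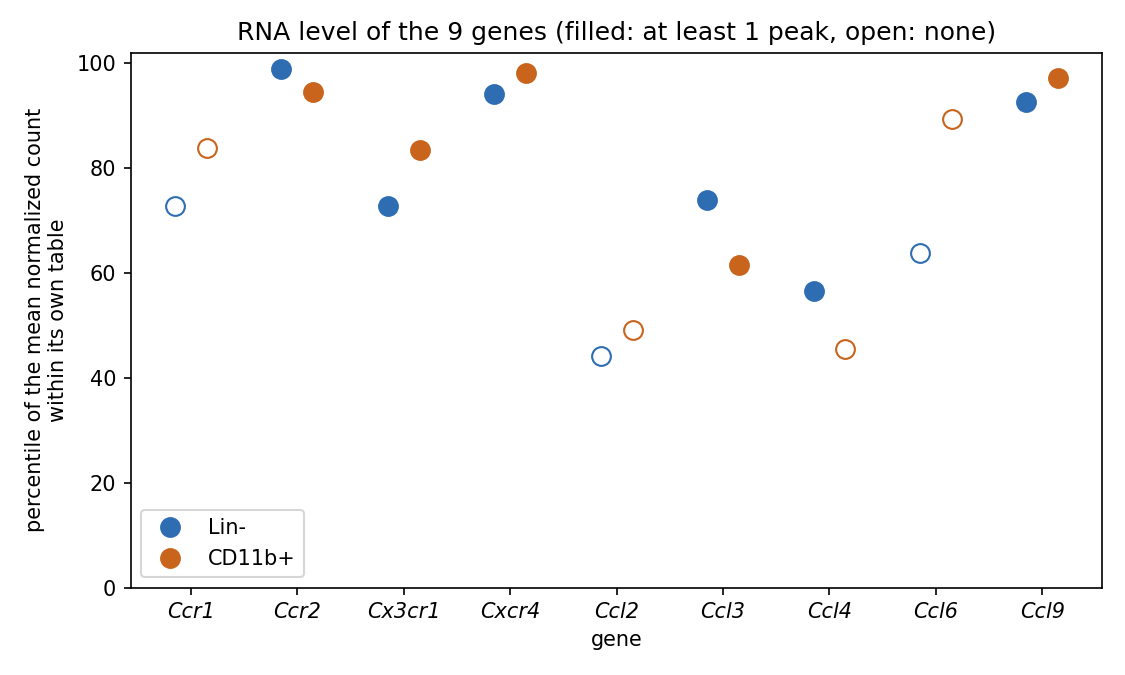
Percentile of the authors' mean normalized count of each of the 9 genes within the Lin- (blue) and the CD11b+ table (orange), filled where the gene had at least 1 IGF2BP3 peak in that cell type and open where it had none. *Ccl6* was open at percentile 89.5 in CD11b+ cells, while *Ccl4* was filled at percentile 56.5 in Lin- cells.

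Other genes of the chemokine system were compared by their counts. Of other chemokine receptors, 0 of 17 listed in the Lin- table and 0 of 18 in the CD11b+ table had a peak, of which 6 and 2 had a mean normalized count of at least 100. Averaged over these receptors, 10.01% and 8.24% of all genes in their own expression groups had a peak. Of other ligands, 3 of 22 in Lin- cells (*Ccl25*, *Ccl5* and *Cxcl10*) and 1 of 21 in CD11b+ cells (*Ccl25*) had one (13.6% and 4.76%, against 9.11% and 9.37% of all genes in their expression groups). *Ccl25*, the thymic and gut ligand of CCR9, had peaks in 3 Lin- libraries and 1 CD11b+ library. Of 25 genes of chemokine receptor signaling, 23 had a peak in each cell type (92%, against 73.1% of Lin- and 61.9% of CD11b+ genes in their expression groups), and their median mean normalized count was 4214 in Lin- and 4020 in CD11b+ cells. Among them *Dock2* and *Elmo1*, which link receptors to Rac activation in migrating leukocytes, had peaks in all 10 libraries, with 16 and 17 regions in Lin- and 34 and 20 in CD11b+ cells. *Grk2*, a kinase that desensitizes chemokine receptors, also had peaks in all 10 libraries, with 8 regions in Lin- and 7 in CD11b+ cells.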

How the data were processed

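The series holds 32 libraries: 12 of RNA-seq, 10 of IGF2BP3 eCLIP and 10 smInputs. The authors aligned stranded single-end RNA-seq reads to mm10 with STAR (2.5.3a in the submitters' processing notes, which also name Bowtie2 and DESeq2). They deposited 1 table per cell type, from which only the mean normalized count was used, a signal that the authors scaled with DESeq2 size factors and averaged over both genotypes. The fold changes, errors, p-values and peak marks of these tables hold the authors' own comparison of I3KO with WT and were not used. For eCLIP, the authors removed repeats, deduplicated reads, ran CLIPper on each library separately and dropped peaks that overlap smInput peaks. The deposited peak lists give a CLIPper p-value of at most 0.05 per peak, in a column without a name, and the number that ends each peak name, which was read as its reads. Its rank correlation with the p-value was -0.986 in Lin- and -0.983 in CD11b+ peaks. Per the file headers, smInputs had other deduplication and peak calling settings than eCLIP libraries. Read depth is unknown, so the number of peaks is the measure of yield.

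Peaks were given to genes by the Ensembl ID in their name and merged on the same strand. Places and splice sites came from the GENCODE M21 basic set, and sequences from the RefSeq GRCm38 genome. Intervals are Wilson intervals at 95%, and the floor for a count of 0 is 3 counts, both for counting error only. Repeat-like regions were found by counting their middle 25 bases (in a UTR, those of the deepest peak) on both strands. Exact two-sided permutation tests over biological libraries were run, 5 in all, with the receptors and the ligands added after the values were seen. The members and gene lists were chosen with earlier results of these data known, so no p over the members is printed. All 9 members are named, and of each other list at most the 3 genes with a peak in the most libraries. No receptor of the other list had a peak, so none is named. Merging and tests were tested on simulated data. Software was Python 3.11.15, pandas 2.3.3, NumPy 2.4.6, SciPy 1.17.1, pysam 0.24.0, samtools 1.23.1 and matplotlib 3.10.9.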

Additional observations from a re-analysis of the deposited data

How the results depend on the processing

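The number of the 9 genes with a peak stayed within 1.5 times its value under every alternative run, at 4 to 6 in Lin- and 4 to 5 in CD11b+ cells. The difference in peaks per 10000 between the cell types kept its sign, though the groups overlapped at a CLIPper p below 0.001 and with touching peaks merged, and ran from 1.35 without CD11b+ biological replicate 1 to 18.2 without CD11b+ biological replicate 2, and was 4.48 with technical libraries added. The difference in the number of genes with a peak ranged from -0.333 to 0.667 when 1 library was left out, turning negative without CD11b+ biological replicate 1, and was 2.17 at a CLIPper p below 0.001. Pairing Lin- and CD11b+ libraries by replicate number, which they share only as a number, gave 10.01 for peaks per 10000 and 0 for the number of genes in this block over 2 pairs. Against smInput, adding technical libraries gave 9.63, and the comparison without the pairing gave 10.02. Technical libraries are not independent pairs, and the smInputs were all at 0 with limits mostly above the eCLIP values, so neither adds to the comparison. Receptor peaks per 10000 differed by 4.56 to 18.7 and ligand peaks by -3.21 to -0.506 when 1 library was left out, and by 8.02 and -3.54 with technical libraries added. The intronic share of Lin- regions fell to 8.33% when any overlap with an exon counted, and that of CD11b+ regions to 28%. The share with a CA 6-mer was 0% of Lin- regions in biological libraries. ACAC or CACA was held by 25% of Lin- and 24% of CD11b+ regions. Low peak numbers per library, at most 22, and only 2 biological CD11b+ libraries limit all comparisons.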
